A study of Mus musculus with 24 samples.

Results

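The Slc25 genes encode the mitochondrial carriers, the largest group of solute transporters of the inner mitochondrial membrane. All table entries whose symbol is Slc25a followed by digits were taken, which gave 44 of 25965 entries. Genes under other symbols, such as Mcart1 (Slc25a51 in GENCODE M21), were left out, and the family below means these 44 members. Their transcripts were sequenced in mouse oocytes, each lysed on its own. The study asked how raised anti-Müllerian hormone (AMH), a product of the granulosa cells of growing follicles, bears on the oocyte. Oocytes came after natural ovulation from adult Thy1.2-AMHTg/0 females, whose AMH transgene is under a Thy1.2 promoter, and from Thy1.2-AMH0/0 females, which are the wild type. The labels give no exact ages. Each genotype had 4 females with 2 or 3 oocytes analysed from each, 10 transgenic and 11 wild-type oocytes in all. The 4 sequencing lanes each carried the oocytes of 1 transgenic and 1 wild-type female. Cumulus cells and the zona had been removed from every oocyte. The control RNA of the amplification kit, of unstated tissue, was sequenced as 1 library.

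Most carriers move a particular substrate across the inner membrane, and many are strict exchangers that bring 1 molecule in as another goes out. Adenine nucleotide carriers export the ATP made by oxidative phosphorylation, and other members carry phosphate, organic acids, amino acids, cofactors or iron. Oocytes hold very many mitochondria and rely on pyruvate oxidation for ATP, so the carriers connect the cytoplasm to most of the cell's energy supply.

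Values are reads per 1000000 reads of the library (RPM), a share of the library and not an amount per oocyte. How far capture of a transcript in the amplification, for example through its poly(A) tail, bears on its level was not tested. Between 20400000 and 33300000 reads were obtained per oocyte, at which 3 reads correspond to 0.0900 to 0.147 RPM. The 6 oocyte markers Gdf9, Bmp15, Zp2, Zp3, Mos and Btg4 summed to 10528 to 21771 RPM in the oocytes and to 12.1 RPM in the control RNA. The 12 cumulus and granulosa markers summed to 0 to 3.38 RPM in transgenic oocytes and to 0.0978 to 30.9 RPM in wild-type oocytes. The highest sum was that of oocyte C of the wild-type female of lane 2, the next was 3.54 RPM, and Foxl2 had 0 reads in every oocyte.

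Close relatives within the family were distinct in sequence at a length of 50 bases, while how their reads were assigned was not tested. No 50-base stretch of any member's annotated transcripts occurred in another member. The 3 adenine nucleotide carriers are shown over the 60 coding bases around the run of arginine and methionine codons that marks these carriers, read 5′ to 3′ from GENCODE M21 transcripts (build GRCm38). Capitals mark bases that differ from Slc25a5. The stretches span an intron in the genome, at chrX:36797819-36798388 on the plus strand for Slc25a5, chr8:46207619-46208455 on the minus strand for Slc25a4 and chr3:40722710-40724885 on the plus strand for Slc25a31.
Slc25a5: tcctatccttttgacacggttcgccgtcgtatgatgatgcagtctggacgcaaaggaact
Slc25a4: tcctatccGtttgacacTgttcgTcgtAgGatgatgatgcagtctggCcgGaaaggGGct
Slc25a31: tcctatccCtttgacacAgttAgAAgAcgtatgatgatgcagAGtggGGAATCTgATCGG
Even in this conserved stretch Slc25a4 differed from Slc25a5 at 9 bases and Slc25a31 at 20. Over the whole coding sequences the longest identical run with Slc25a5 was 20 bases for Slc25a4 and 21 bases for Slc25a31. Slc25a5 shared 33.8% of its 50-base stretches with other genes, chiefly the processed pseudogenes Gm5560 and Gm5529. Slc25a35 shared 928 of 3705 with the overlapping Rangrf and with pseudogenes, and Slc25a33 shared 12.6% with the antisense gene Gm13068. How reads with several matches and strand were treated is not stated in the labels or notes, so the levels of these 3 genes are uncertain to that extent. The other members shared under 10%.

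Transcripts of a wide but uneven set of carriers were read in the oocytes. Of the 44 members, 29 had reads in all 21 oocytes, 31 had a mean of at least 1 RPM, 16 of at least 10 RPM and 4 of at least 100 RPM. The 4 were Slc25a15, the ornithine and citrulline exchanger of the urea cycle, Slc25a17, a peroxisomal carrier of coenzyme A and related cofactors, Slc25a48, for which no substrate is given here, and the phosphate carrier Slc25a3. Slc25a15 (chr8:22375554-22398621, minus strand) ran from 157 to 329 RPM with a median of 220. Slc25a17 (chr15:81318921-81360765, minus strand) ran from 113 to 383 RPM with a median of 165. Slc25a48 (chr13:56438355-56474239, plus strand) ran from 123 to 242 RPM with a median of 182. Slc25a3 (chr10:91116574-91124059, minus strand) ran from 57.9 to 136 RPM with a median of 102. Next came Slc25a5 (chrX:36795651-36798807, plus strand) at 63.2 ± 14.5 RPM and the glycine carrier Slc25a38 (chr9:120110374-120124504, plus strand) at 56.2 ± 25.7 RPM (SD over 21 oocytes).

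At the other end, 7 members had no read in any of the 21 oocytes: Slc25a2, Slc25a18, Slc25a34, Slc25a41, Slc25a42, Slc25a43 and Slc25a47. A count of 0 over all oocytes allows up to 0.00600 RPM (3 reads), a limit that covers counting error only, because reads copied by amplification do not each stand for a molecule. Slc25a29, a carrier of basic amino acids, had 3 reads, all in 1 transgenic oocyte. A further 5 members were read at a mean under 1 RPM. These were the dicarboxylate carrier Slc25a10 at 0.769 RPM, the iron importers Slc25a28 and Slc25a37 at 0.713 and 0.115 RPM, Slc25a27 at 0.334 RPM and Slc25a45 at 0.183 RPM. The mitoferrins Slc25a28 and Slc25a37, which bring iron in for haem and iron-sulfur clusters, had reads in 21 and in 2 of the 21 oocytes.

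To order the genes, RPM was divided by the length of a gene's annotated exons, which gives RPM per kb. The order was led by Slc25a17 at 66.3 ± 24.6, Slc25a48 at 54.2 ± 11.7, Slc25a15 at 39.8 ± 8.71 and Slc25a5 at 38.4 ± 8.81 RPM per kb (SD, 21 oocytes). Then followed Slc25a14, a relative of the uncoupling proteins, at 22.8 ± 6.14, Slc25a38 at 20.4 ± 9.35 and Slc25a3 at 18.1 ± 4.15 RPM per kb. Neighbours in the order overlapped over the oocytes in all 30 pairs of tested members. Slc25a17 was above Slc25a48 in 12 of 21 oocytes and Slc25a15 above Slc25a5 in 10, so these neighbours cannot be ranked. Slc25a48 was above Slc25a15 in 18 oocytes and Slc25a5 above Slc25a14 in 19. The order depends in part on the length used. Divided by the longest transcript instead, Slc25a17 and Slc25a48 still led, with Slc25a5 at 51.0 and Slc25a15 at 50.6 RPM per kb. Shares of the family use exon length only. Slc25a15, Slc25a17 and Slc25a48 together made up 39.6% to 47.9% of the family's RPM per kb in an oocyte and 1.90% in the control RNA. These genes were picked because they led the oocytes, so a lower share in another RNA is partly built in.

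**Figure D1:**
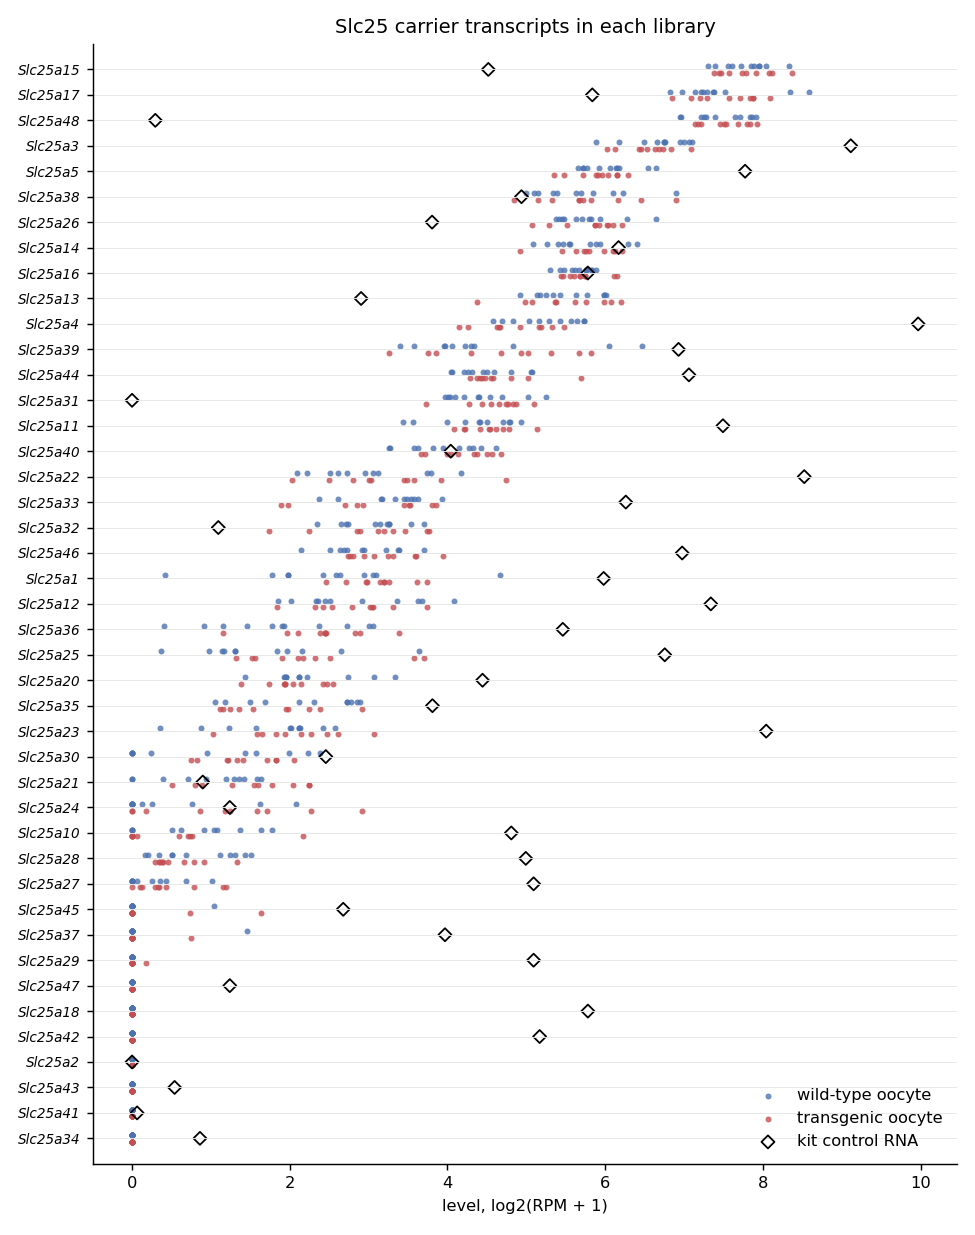
Level of 43 Slc25 members as log2(RPM + 1), ordered by mean RPM, in each of the 21 oocytes, coloured by genotype, and in the kit control RNA (diamonds). Slc25a15, Slc25a17, Slc25a48 and Slc25a3 lead the oocytes, while Slc25a4 leads the control RNA at 1002 RPM.

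By substrate, the carriers of cofactors, nucleotides and glutathione took the largest share of the family's RPM per kb in oocytes, 29.5% against 11.4% in the control RNA. Their leading member was Slc25a17, with 66.3 of their 108.5 RPM per kb, and 9 of 10 reached 1 RPM. Slc25a17 by itself held 11.4% to 30.4% in an oocyte and 1.58% in the control RNA. The share of the class therefore rested largely on 1 gene. The other members include Slc25a26, which imports S-adenosylmethionine for methylation in mitochondria, at 55.9 ± 15.3 RPM and Slc25a16, which is linked to coenzyme A, at 50.8 ± 7.99 RPM. They also include the folate and flavin carrier Slc25a32 at 7.74 ± 2.80 RPM. The carriers of other amino acids and of carnitine held 18.4% in oocytes and 5.52% in the control RNA. They were led by Slc25a15, with 39.8 of their 67.7 RPM per kb in oocytes. Adenine nucleotide exchangers held 17.2% in oocytes and 44.8% in the control RNA.

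Carriers of di- and tricarboxylates held 3.78% in oocytes and 9.73% in the control RNA. Their leading member was Slc25a11, the oxoglutarate and malate exchanger of the malate-aspartate shuttle (chr11:70644196-70647479, minus strand), at 21.3 ± 5.97 RPM. The citrate carrier Slc25a1 stood at 7.10 ± 4.87 RPM. The ATP-Mg and phosphate exchangers, which tune the adenine nucleotide pool in response to calcium, held 0.380% in oocytes and 5.11% in the control RNA. Slc25a46, a protein of the outer membrane involved in mitochondrial shape, stood at 7.72 ± 2.74 RPM.

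Pairs of carriers with a shared substrate were compared for which relative had more reads per kb in the oocytes. Among the adenine nucleotide carriers, Slc25a5 was above Slc25a4 (chr8:46206797-46211284, minus strand) in 21 of 21 oocytes, 38.4 against 14.4 RPM per kb, a ratio of 2.67. The control RNA had the opposite order, with 426 RPM per kb of Slc25a4 and 132 of Slc25a5. Slc25a31 (chr3:40708855-40725593, plus strand), the carrier known in mice mainly from male germ cells, stood at 10.6 ± 3.10 RPM per kb and was above Slc25a4 in 7 of 21 oocytes. With the longest transcript as length, Slc25a31 was above Slc25a4 in 4 oocytes. It had 0 reads in the control RNA. The log2 ratio of Slc25a5 to Slc25a4 was 1.60 ± 0.13 over the transgenic females and 1.38 ± 0.51 over the wild type (SD, n = 4 each), values that overlap.

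The aspartate and glutamate exchangers were also unequal. Slc25a13 (citrin; chr6:6041218-6217118, minus strand) was above Slc25a12 (aralar; chr2:71271063-71367749, minus strand) in 21 of 21 oocytes, 12.2 against 0.924 RPM per kb, a ratio of 13.2. In the control RNA Slc25a12 was 12.8 times Slc25a13. Of the glutamate importers, Slc25a22 stood at 8.82 ± 5.43 RPM while Slc25a18 had no read in any oocyte. Of the coenzyme A carriers, Slc25a16 was read and Slc25a42 was not. The control RNA held both members of each of these pairs, with 54.0 RPM of Slc25a18 and 35.0 RPM of Slc25a42.

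In the remaining pairs the mean order in the oocytes was that of the control RNA. Of the glutathione importers, Slc25a39 was above Slc25a40 in 21 oocytes, by a ratio of 5.18 per kb. Of the pyrimidine nucleotide carriers, Slc25a36 was above Slc25a33 in 0 of 21, at 0.414 against 4.61 RPM per kb. Of the ATP-Mg exchangers, Slc25a24 was above Slc25a25 in 5 oocytes and above Slc25a23 in 5, or in 3 and 4 by the longest transcript. Slc25a28 was above Slc25a37 in 21 oocytes, and 19 of these had 0 reads of Slc25a37.

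**Figure D2:**
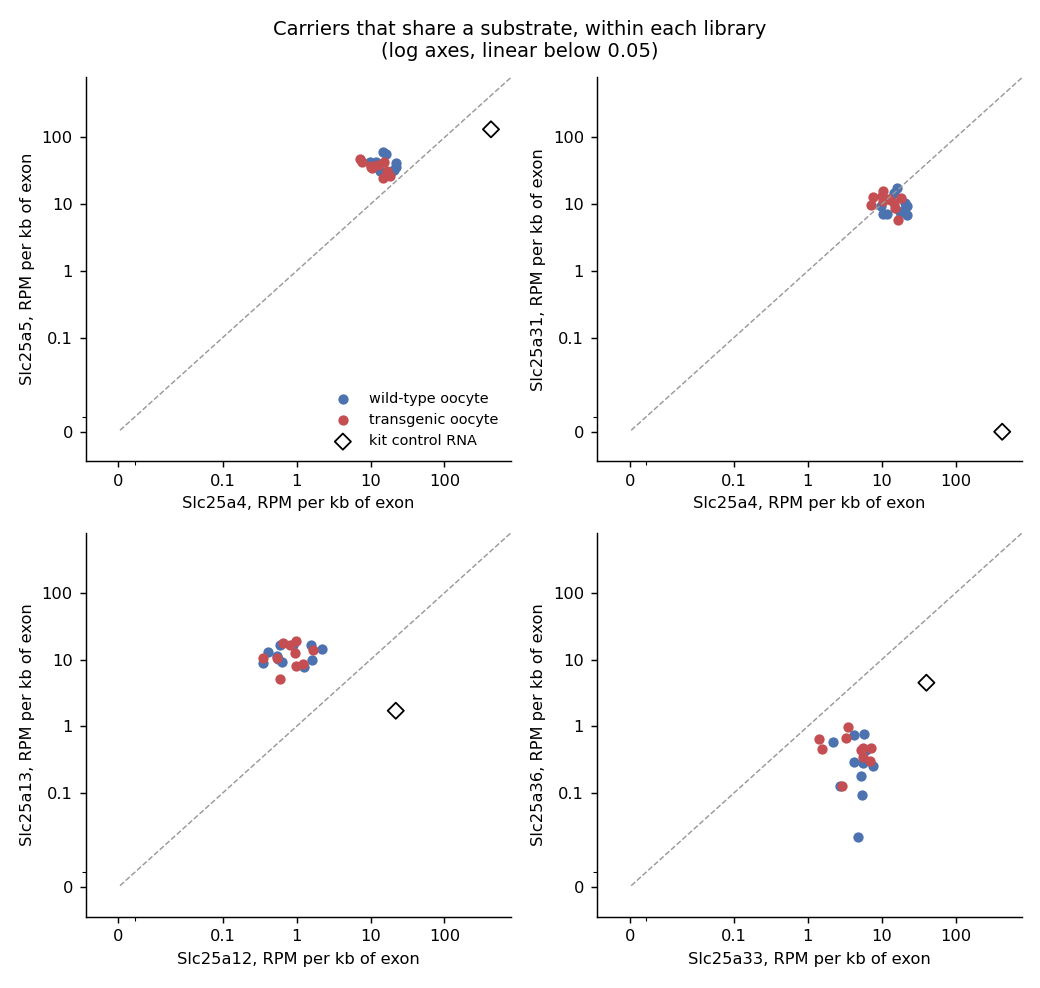
Levels of carriers with a shared substrate in RPM per kb of exon (log axes, linear below 0.05), with 1 point for each of the 21 oocytes and a diamond for the control RNA; the dashed line marks equal levels. All oocytes lie above the line for Slc25a5 and Slc25a13, where the control RNA lies below it, and all libraries lie below it for Slc25a36.

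Together the 44 members took a smaller share of the reads in the oocytes than in the control RNA. They summed to 1029 to 1485 RPM in the oocytes and to 4003 RPM in the control RNA. With 1 control library there is no test, and the differences describe these libraries. Of the 40 members that reached 1 RPM in the oocytes or the control RNA, 5 were more than 4-fold higher in wild-type oocytes on the log2(RPM + 1) scale, where 14.8% of 16105 genes were. Another 23 were more than 4-fold lower, where 41.9% of genes were, and 12 lay within 4-fold. The median log2 difference was -2.54 over the members and -1.45 over all genes.

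The 5 higher members were Slc25a48, Slc25a31, Slc25a15, Slc25a13 and Slc25a26. Slc25a48 averaged 176 ± 41.0 RPM over the wild-type females (SD, n = 4) and had 5 reads in the control RNA, or 0.227 RPM. The ratio was 775, and the exact binomial (Clopper-Pearson) 95% interval of the control count gave 332 to 2388. That interval covers the counting error of the control library only and leaves out the spread over the females. Slc25a31 stood at 22.4 ± 7.96 RPM and was at least 165-fold higher than the control RNA, taking 3 reads as the floor of that library. This floor too covers counting error only. Slc25a15 was 10.2-fold and Slc25a13 6.94-fold higher. On the log2(RPM + 1) scale Slc25a26 lay just inside the limit at 2.01, and Slc25a32 just outside at 1.98. As plain ratios of RPM they were 4.44-fold and 6.80-fold higher, because that scale understates the change of low genes. Slc25a32 had 25 reads in the control RNA.

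Furthest below the control RNA on the log2(RPM + 1) scale were Slc25a23, Slc25a18, Slc25a22 and Slc25a42. Slc25a23 stood at 2.75 ± 0.709 RPM in wild-type oocytes and at 263 RPM in the control RNA, a ratio of 95.6. Slc25a22 was 44.6-fold, Slc25a25 38.3-fold, Slc25a4 26.3-fold and Slc25a12 22.7-fold lower in the oocytes. Slc25a27 and Slc25a37, both under 1 RPM in oocytes, were 153-fold and 100-fold lower. These ratios rest on 61 reads of Slc25a27 from 6 wild-type oocytes and on 37 reads of Slc25a37 from 1. Slc25a18 was at least 4662-fold and Slc25a42 at least 3021-fold lower, taking 3 reads over the 11 wild-type oocytes as the floor. That floor covers counting error only, and loss of rare transcripts in the amplification was not tested. Within 4-fold lay Slc25a16 at 49.2 against 53.9 RPM and Slc25a40 at 15.1 against 15.5 RPM, both close to equal. Slc25a47 also fell there on the log2(RPM + 1) scale, with no read in the oocytes and 1.36 RPM in the control RNA.

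The promoters of Slc25a31 and Slc25a48, the members furthest above the control RNA, are shown over the 250 bases before the annotated start, read 5′ to 3′ on the plus strand from RefSeq (build GRCm38.p6). They lie at chr3:40708621-40708870 and chr13:56438105-56438354, and capitals mark CG dinucleotides.
Slc25a31: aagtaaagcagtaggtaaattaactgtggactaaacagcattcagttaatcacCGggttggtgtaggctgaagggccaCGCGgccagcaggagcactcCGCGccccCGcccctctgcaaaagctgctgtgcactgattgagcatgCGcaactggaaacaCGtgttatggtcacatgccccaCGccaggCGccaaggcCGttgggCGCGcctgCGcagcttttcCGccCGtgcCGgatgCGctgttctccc
Slc25a48: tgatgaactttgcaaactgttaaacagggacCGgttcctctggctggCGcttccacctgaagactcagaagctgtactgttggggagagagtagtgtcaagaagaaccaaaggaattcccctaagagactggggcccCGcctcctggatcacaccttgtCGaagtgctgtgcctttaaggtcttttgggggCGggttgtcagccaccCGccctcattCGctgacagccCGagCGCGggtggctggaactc
Slc25a31 held 18 CG dinucleotides and Slc25a48 held 10, against a median of 6 over 32851 promoters of this length. The E-box CACGTG occurred 1 time before Slc25a31 and not before Slc25a48, and 6.02% of all promoters held it. TATAAA and TCCCGC, sought on both strands, occurred in neither, and 12.4% and 16.9% of all promoters held them. RefSeq windows were matched for 34 of the 44 members.

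No carrier differed between the genotypes at the threshold. Females were compared by limma on log2(RPM + 1) averaged over the oocytes of a female, and 31 members with a mean of at least 1 RPM were tested. With Benjamini-Hochberg adjustment over 10987 genes, 0 members had an adjusted p under 0.05, as had 0% of all genes. An unadjusted p under 0.05 was reached by 2 members, where 6.81% of genes reached it. Both were higher in transgenic oocytes, as were 2.78% of genes, and none was lower, as 4.03% of genes were. limma voom on reads summed per female also called 0 members. Of the 31 members, 22 stood higher in transgenic oocytes, where 47.8% of all genes did, with a median log2 difference of 0.09 against -0.01 over all genes. The standard errors of the members ran from 0.15 to 0.49 on the log2 scale, with a median of 0.24. The sum of the family was 1274 ± 115 RPM over the transgenic females and 1255 ± 136 RPM over the wild type (SD, n = 4 each), a difference smaller than the spread.

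The smallest p belonged to Slc25a24 (chr3:109123149-109168457, plus strand), a calcium-regulated ATP-Mg and phosphate exchanger at low level. Its mean in transgenic females of lanes 1 to 4 was 1.40, 1.78, 2.18 and 1.78 RPM, and in wild-type females 0.697, 0.233, 1.11 and 0.0967 RPM. The groups did not overlap, which 1.64% of all genes showed in this direction. No member was lower without overlap, as 2.39% of genes were. The log2 difference was 0.80 ± 0.23 (SE) with a limma p of 0.00459 and a Benjamini-Hochberg adjusted p of 0.724. Slc25a24 had 0 reads in 2 of 10 transgenic and 6 of 11 wild-type oocytes. It reached the filter of 1 RPM through the transgenic group alone, at 1.78 against 0.534 RPM. The 428 and 143 reads behind it came from 8 and 5 oocytes. The highest transgenic mean, of lane 3, came from 1 oocyte at 6.54 RPM with its sisters at 0. The highest wild-type mean, also of lane 3, rested mainly on 1 oocyte at 3.23 RPM. Without the transgenic female of lane 3 Slc25a24 fell below the filter and was not fitted.

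Slc25a25 (chr2:32414487-32451445, minus strand), of the same exchanger group, averaged 7.35, 2.69, 3.14 and 7.09 RPM in the transgenic females of lanes 1 to 4 against 2.54, 4.31, 3.10 and 1.22 RPM in the wild type. The transgenic females of lanes 1 and 4 were high and the other 6 females overlapped. Each of these high means came from 1 oocyte, at 12.0 and 10.9 RPM beside sisters at 2.72 and 3.29 RPM. Oocyte C of the wild-type female of lane 2 stood as high, at 11.4 RPM beside sisters at 1.21 and 0.291 RPM. That oocyte also had the highest cumulus marker sum, 30.9 RPM. The log2 difference of Slc25a25 was 0.72 ± 0.30 (SE) with an adjusted p of 0.724 by limma and Benjamini-Hochberg. Without that oocyte it was 0.96 with an adjusted p of 0.657 by the same test. The third exchanger tested, Slc25a23, differed by 0.30 ± 0.25 with an adjusted p of 0.815 by the same test. Slc25a41, the remaining gene of that group, had no reads in the oocytes.

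The oxodicarboxylate carrier Slc25a21 (chr12:56712634-57197472, minus strand) averaged 2.06 ± 0.772 RPM over the transgenic females against 1.12 ± 0.306 RPM over the wild type, a log2 difference of 0.51 ± 0.26. The pyrimidine nucleotide carrier Slc25a36 (chr9:97075597-97111157, minus strand) averaged 4.74 ± 1.04 against 3.57 ± 2.13 RPM, differing by 0.46 ± 0.33 on the log2 scale. In all 4 lanes the transgenic female was the higher for 4 members, Slc25a24, Slc25a25, Slc25a21 and the branched-chain amino acid carrier Slc25a44, where 7.97% of all genes showed this. For Slc25a5 it was the lower in all 4 lanes, where 10.3% of genes showed this.

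Lower in transgenic oocytes by value were the abundant adenine nucleotide carriers. Slc25a4 stood at 26.4, 27.9, 32.9 and 26.9 RPM in transgenic females and at 37.1, 51.0, 28.0 and 36.4 RPM in wild-type females. Only the lane 3 pair had the opposite order, and the log2 difference was -0.41 ± 0.20 with an adjusted p of 0.741 by limma and Benjamini-Hochberg. Slc25a5 averaged 59.3 ± 2.95 RPM over the transgenic females against 69.0 ± 17.8 RPM over the wild type. Its log2 difference of -0.20 ± 0.18 became -0.03 once the wild-type female of lane 4 was left out. Slc25a35 and the pyrimidine nucleotide carrier Slc25a33 differed by -0.31 ± 0.28 and -0.22 ± 0.23. Slc25a31 differed by 0.15 ± 0.24, in the other direction from its relatives.

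**Figure D3:**
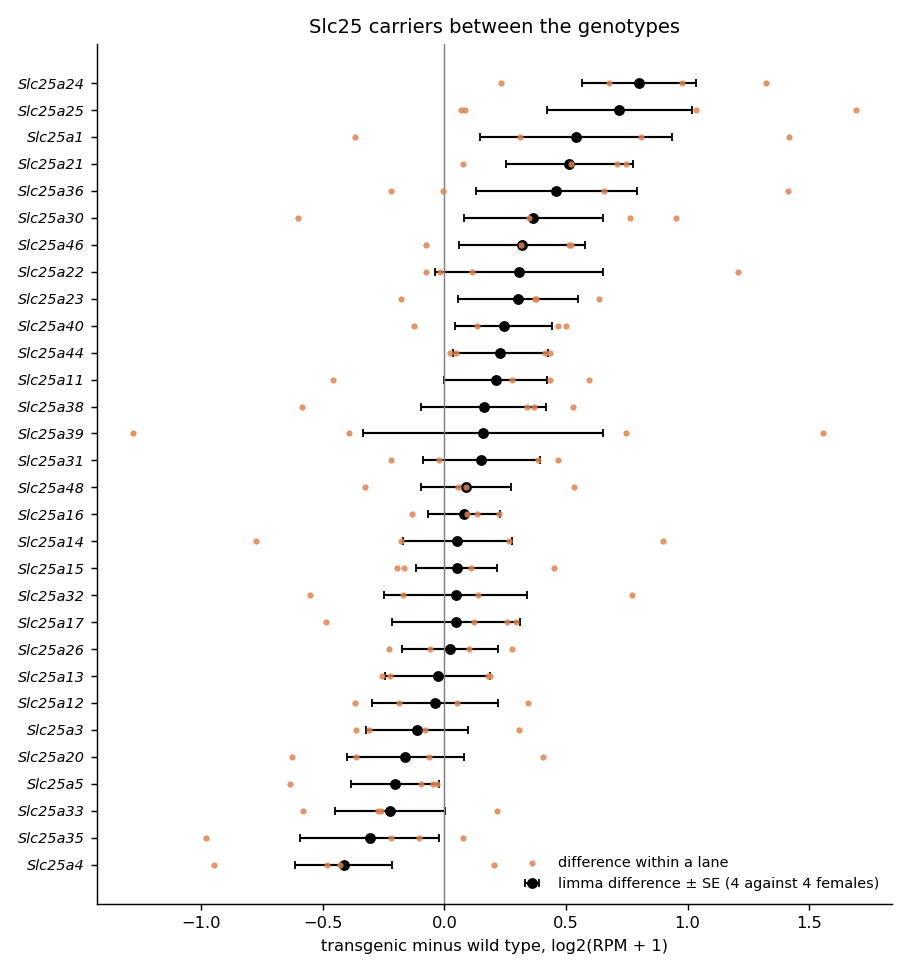
Difference between transgenic and wild-type females in log2(RPM + 1) for 30 of the 31 tested members, as the limma estimate with its standard error (black) and the difference within each of the 4 lanes (orange). Slc25a24 has the highest estimate, 0.80, and Slc25a4 the lowest, -0.41, and no adjusted p passes the threshold.

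The 4 most abundant carriers differed between the genotypes by less than their standard errors. Slc25a15 averaged 234 ± 54.0 RPM over the transgenic females against 225 ± 9.60 RPM over the wild type. Slc25a17 averaged 196 ± 38.8 against 201 ± 103 RPM, Slc25a48 185 ± 29.6 against 176 ± 41.0 RPM, and Slc25a3 92.8 ± 16.0 against 102 ± 26.5 RPM. Their log2 differences lay between -0.11 and 0.09, with standard errors of 0.17 to 0.26. Slc25a13, Slc25a14, Slc25a38 and Slc25a11 differed by -0.03, 0.05, 0.16 and 0.21 on the log2 scale, and Slc25a46 by 0.32 ± 0.26.

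For several carriers a single female stood apart from the others of her genotype. The wild-type female of lane 4, with 2 oocytes, had 354 RPM of Slc25a17 against 142 to 157 RPM in the other wild-type females. She had 76.4 RPM of Slc25a39 against 13.4 to 18.8 RPM. Leaving her out moved the log2 difference between the genotypes from 0.05 to 0.36 for Slc25a17 and from 0.16 to 0.71 for Slc25a39. Among the 8 females she was the highest for 9 and the lowest for 7 of the 31 members, and over all genes for 16.4% and 21.3%. The transgenic female of lane 1 was the highest for 8 and the lowest for 2 members, and over all genes for 21.3% and 21.5%.

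**Figure D4:**
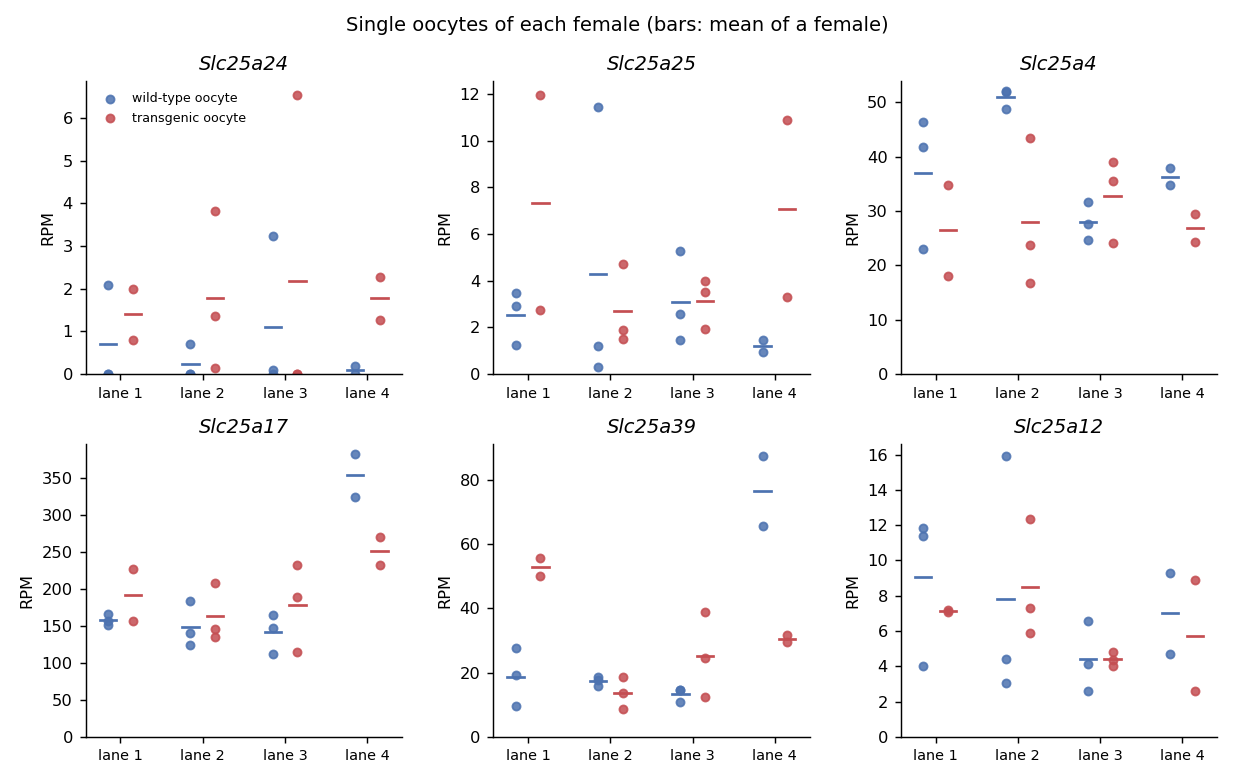
RPM of 6 carriers in each oocyte, by lane and genotype, with a bar at the mean of each female. Slc25a24 is low and often at 0, the wild-type female of lane 4 stands apart for Slc25a17 and Slc25a39, and sister oocytes of the transgenic and wild-type females overlap for Slc25a12.

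Sister oocytes of a female share their source, and their spread was pooled over the females as an SD of log2(RPM + 1). The median SD was 0.40 over the 23 members with a mean of at least 5 RPM and 0.36 over 8029 genes of that level. Slc25a12 had an SD of 0.68 and ran from 2.57 to 15.9 RPM. Slc25a33 had an SD of 0.65 and ran from 2.70 to 14.2 RPM. These values were above those of 93.4% and 91.9% of the genes. Slc25a3, Slc25a48 and Slc25a16 were the steadiest members at 0.23 to 0.24. Slc25a12 and Slc25a33 had means under 10 RPM, and the 3 steadiest members had means above 50 RPM.

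**Figure D5:**
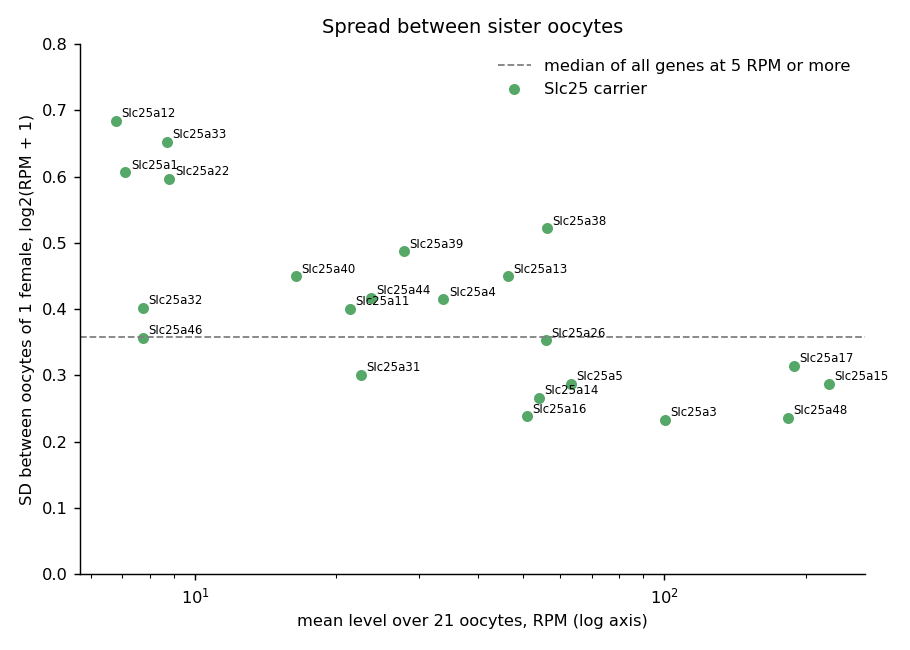
SD of log2(RPM + 1) between sister oocytes, pooled over 8 females, against mean RPM over 21 oocytes (log axis) for 22 of the 23 members with a mean of at least 5 RPM. Slc25a12 stands at 0.68 and Slc25a3 at 0.23, and the dashed line marks the median of all genes of that level, 0.36.

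Other genes of mitochondrial transport are given for comparison. Of 7 listed relatives of the carriers 3 were tested and 0 were called by limma. These were Mcart1 (Slc25a51 in GENCODE M21, the carrier of NAD) at 41.5 ± 6.00 RPM over the transgenic females against 39.6 ± 3.98 RPM over the wild type, Mcart6 (Slc25a53) at 2.49 ± 1.26 against 1.05 ± 0.632 RPM, and Mtch1 at 3.61 ± 1.53 against 3.31 ± 2.45 RPM. Of 14 tested genes of the protein import machinery, through which the carriers reach the inner membrane, 0 were called, 4 stood higher and 10 lower, with a median log2 difference of -0.39. Tomm6, a small subunit of the outer membrane translocase, averaged 6.16 ± 1.16 RPM over the transgenic females against 17.3 ± 13.1 RPM over the wild type. The wild-type females of lanes 1 to 4 had 9.26, 9.61, 13.5 and 36.7 RPM, so the female of lane 4 raised that mean. Its log2 difference was -1.09 ± 0.34 and its adjusted p 0.724 by limma and Benjamini-Hochberg. Without that female the log2 difference was -0.70. Timm9, a chaperone that escorts carriers between the membranes, differed by -0.68 ± 0.27, and Timm29 (1810026J23Rik in the table) by 0.72 ± 0.26.

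Of 14 tested genes for other mitochondrial transport, 0 were called, 4 stood higher and 10 lower, with a median log2 difference of -0.17. Smdt1, a regulator of the calcium uniporter (1500032L24Rik in the table), differed by -0.64 ± 0.22, Sfxn2 by 0.46 ± 0.28 and Micu3 (Efha2 in the table) by -0.41 ± 0.25. The oocyte with the highest cumulus marker sum was the highest of 21 for 2 and the lowest for 1 of the 31 carriers. Without it 0 carriers were called and the median difference of the members was 0.13. The part of residual cumulus cells in the other differences was not tested.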

How the data were processed

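Each oocyte's RNA was amplified by SMART-Seq v4 chemistry and made into ThruPLEX libraries, per the labels' protocols. HISAT2, Trim Galore and FastQC are named without versions in the submitters' processing notes, beside GRCm39 and mm39 as builds. Neither the counting tool nor the annotation is given in the sources used here. The deposited values are log2 values made by the authors. Though named RPKM, they are log2 RPM, not divided by gene length, and 0.9 reads stand for a count of 0. Whole reads were recovered: of 256342 values above 0 and under 2000 reads, 100% lay within 0.02 of a whole read. The table's coordinates fit GRCm38, and all 44 members overlapped their GENCODE M21 gene.

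RPM was recomputed with genes without reads at 0. In R 4.3.3, limma 3.58.1 (lmFit, then eBayes with trend) compared log2(RPM + 1) averaged per female, 4 against 4, two-sided, over 10987 genes that averaged at least 1 RPM, with calls made below 0.05 after Benjamini-Hochberg adjustment. The scale understates the change of low genes. The deposited unit is log2, so the recovered reads entered a fit only as an alternative, limma voom on reads summed per female. Plots and tables used Python 3.11.15. The labels place 1 transgenic and 1 wild-type female in every lane, which pairs them. The deviations from the genotype mean of such a pair correlated at -0.0403, 0.0835, 0.342 and 0.317 across genes in lanes 1 to 4, and those of females from different lanes at -0.358 to 0.313. Not analysed here were the water-only library and transgenic oocyte A of lane 1.

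The members and lists were chosen with earlier results of these data known. Described in full were the 6 most abundant members, up to 4 per direction with the smallest p, the most abundant of each role, the listed pairs, the 3 most variable between sisters, the 4 furthest above and below the control RNA, and up to 3 genes of each comparison list with the smallest p. Other members are named after their values were seen, and 1 member is not reported here. Alternatives were other pseudocounts, filters, scalings, summaries per female, the lane as block, oocytes entered singly, limma voom and leaving out each female.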

Additional observations from a re-analysis of the deposited data

Results flagged for a closer look

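Of 72 groups of 4 females examined over 38 named genes, 8 held a female far from the others by Dixon's criterion at the 95% level, where chance gives about 1 in 20, or 3.6. The wild-type female of lane 4 accounted for 4 of them, so the groups were not independent and 8 against 3.6 is no test of an excess. She stood at 354 RPM of Slc25a17 against 142 to 157 RPM, at 95.6 RPM of Slc25a5 against 57.4 to 62.3 RPM, at 34.3 RPM of Slc25a31 against 17.8 to 19.1 RPM and at 76.4 RPM of Slc25a39 against 13.4 to 18.8 RPM. The transgenic female of lane 2 stood at 62.8 RPM of Slc25a13 against 36.7 to 42.1 RPM. Slc25a37 had reads in a single female of each genotype, at 0.338 RPM (transgenic, lane 4) and 0.583 RPM (wild type, lane 3). With the other females at 0, any read meets the criterion, so it was met in advance for Slc25a37. Sfxn2 stood at 1.13 RPM in the transgenic female of lane 3 against 1.72 to 2.03 RPM.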

How the results depend on the processing

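No member was called under any alternative run. Over all genes, 12 were called with oocytes entered singly (random female effect, lane as replicate block), and 0 to 1 when each female was left out, the 1 call coming without the transgenic female of lane 1. The causes were not tested. With female means and the lane as replicate block the paired fit called 0 genes and 0 members, with a median member difference of 0.09. Over all alternatives that median ran from 0.04 to 0.18. The share of members higher in transgenic oocytes ran from 54.8% (without the wild-type female of lane 3) to 77.4% (medians of a female's oocytes). The difference of Slc25a24 ran from 0.27 (pseudocount of 5 RPM) to 2.15 (voom), with adjusted p from 0.373 to 0.999. In 28 instances a small uncalled difference of a named gene changed sign, most often for Slc25a13 (7 settings) and Slc25a17 (4). Against the control RNA, 4 to 7 members were higher and 20 to 27 lower under the alternatives. With 4 females a genotype, and members under 1 RPM resting on few reads, small differences in this family were not detectable.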
